A study of Mus musculus with 2 samples.

Results

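Cytosolic molecular chaperones were compared between shEmpty and shPDLIM2 LLC cells, with 81 genes of 19505 on the array. They were taken by symbol from the platform annotation, as the genes of the HSP70, HSP110, HSP90 and small heat shock protein families, the heat shock factors, the DNAJ co-chaperones, the CCT chaperonin and the BAG proteins. Of 88 symbols matched, 7 chaperones of the endoplasmic reticulum or mitochondrial matrix (Hspa5, Hspa9, Hsp90b1, Dnajb9, Dnajb11, Dnajc3 and Dnajc10) were left out. Both cell lines were LLC, a mouse Lewis lung carcinoma line of the C57BL/6 strain. The control line received a virus carrying shEmpty and the knockdown line one carrying shPDLIM2, of which the study kept 1 shRNA for its efficient knockdown. Both lines were made stable by puromycin selection, and the sources used here do not say whether they were clones. Each line was measured on 1 Affymetrix Clariom S mouse array, so that there are no replicates, no p-values and no error between cultures, and the knockdown cannot be told apart from other differences between the 2 cultures.

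Chaperones bind unfolded proteins and help them fold, and the cytosol has several machines for this. HSP70 proteins work in cycles started by DNAJ proteins, which deliver clients and stimulate ATP hydrolysis, and ended by nucleotide exchange factors such as the BAG and HSP110 proteins. HSP90 acts later, on kinases and receptors, and CCT (also called TRiC) is a ring of 8 subunits that folds actin and tubulin. Heat shock factor HSF1 is held inactive by chaperones; when unfolded proteins accumulate it binds heat shock elements, inverted repeats of a short unit, and raises a subset of chaperone genes, whereas many others are expressed at all times. Tumor cells are known to lean on this system.

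Because the members include both kinds, 3 lists of members were compared, namely HSF1-inducible chaperones, constitutive HSP and DNAJ genes, and CCT subunits. The lists were chosen with earlier results of these data known, so their contrast is a description and no independent test. Of the inducible list 10 of 11 genes were measured, of the constitutive list 6 of 8 and of the CCT list 7 of 8. Dnaja1, Hspa8, Hsp90ab1 and Cct6a were not analysed here, and neither was Hsf1 itself.

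The promoters of these genes were searched for the heat shock element on both strands, as the pair of inverted units GAANNTTC or TTCNNGAA, each of which is its own reverse complement, and as a run of 3 units, which overlaps the pair. The windows, from RefSeq on the GRCm38.p6 build, ran from 250 bases before to 50 bases after each annotated start site. A pair was found in 7 of the 9 inducible genes with a window (77.8%), in 1 of 5 constitutive genes (Dnajb6) and in 2 of 6 CCT genes (Cct2 and Cct5). The inducible genes with a window but no pair were Hspa4l and Dnajb1, which are among the lower genes of that list below. Over all 27025 genes with a window 17.0% held one, and among the 47 members outside the 3 lists with a window 14.9% did. A run of 3 units was present in 0.662% of all genes and in 2 of 67 members with a window, Hsph1 and Dnajb6. A match is a description of the letters and no evidence of binding.

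The matches are shown because they lie in genes of all 3 lists, 5′ to 3′ on the strand of the gene, with the matched element in capitals. Hsph1, Dnajb4, Dnajb6, Cct2 and Cct5 have 2 annotated start sites each, a gene counted where either window held a match, and distances are from the start site listed first among those with a match. The first match of Hspb1 lay 117 bases before the start, that of Hspa1a 104, of Hsph1 33 and of Dnajb4 14. Those of Bag3 and Hspb8 lay after it, and Hsph1 had a further run of 3 units there. Dnajb6 had its run 46 bases before the start, and the pairs of Cct2 and Cct5 lay 42 and 34 bases before it. From the other start site the run of Dnajb6 lay 127 bases and the pair of Hsph1 54 bases upstream, while the other windows of Dnajb4, Cct2 and Cct5 held no match.
Hspa1a (chr17:34972227-34972286, minus strand): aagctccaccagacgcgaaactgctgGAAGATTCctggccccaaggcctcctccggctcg
Hspb1 (chr5:135887776-135887835, plus strand): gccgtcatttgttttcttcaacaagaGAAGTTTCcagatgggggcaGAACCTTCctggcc
Hsph1 (chr5:149636337-149636395, minus strand): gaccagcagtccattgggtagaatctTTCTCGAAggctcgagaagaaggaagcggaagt
Hsph1, after the start (chr5:149636287-149636316, minus strand): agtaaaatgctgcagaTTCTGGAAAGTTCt
Dnajb4 (chr3:152193846-152193885, minus strand): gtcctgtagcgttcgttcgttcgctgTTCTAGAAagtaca
Hspb8, after the start (chr5:116422835-116422864, minus strand): gaGAAGTTTCtaggctcgcgagtccccgag
Bag3, after the start (chr7:128523603-128523632, plus strand): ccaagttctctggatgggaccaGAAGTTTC
Dnajb6 (chr5:29735826-29735890, plus strand): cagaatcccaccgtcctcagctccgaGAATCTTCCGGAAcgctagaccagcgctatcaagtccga
Cct2 (chr10:117063384-117063443, minus strand): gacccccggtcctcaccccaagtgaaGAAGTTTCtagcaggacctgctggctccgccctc
Cct5 (chr15:31601847-31601906, minus strand): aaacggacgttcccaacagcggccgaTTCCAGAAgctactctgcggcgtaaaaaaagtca
Hspa1b, which encodes the same kind of HSP70 as Hspa1a, had the same stretch, and 296 of the 300 bases of their windows were identical.

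Signals are on the log2 scale after RMA, as the authors deposited them, and differences were taken as shPDLIM2 minus shEmpty. As background served the 1465 chemosensory receptor genes, and a signal counted as above it when higher than their 95th percentile on the same array (5.12 for shEmpty, 5.26 for shPDLIM2). As the only error these arrays give, the spread of 1 probe set's log2 difference was 0.35 (SD, from 48 genes with 2 probe sets each). It is technical and says nothing of the spread between cultures. The knocked-down gene itself, Pdlim2, gave a log2 signal of 10.04 in the control line against 8.33 in the knockdown line, 3.27-fold lower. Of the markers of LLC and epithelium, Vim (19.56 and 19.46), Krt18 (12.20 and 11.29) and Krt8 were above background, and Epcam and Cdh1 were not. Of 17 measured markers of macrophages, lymphocytes, endothelium and fibroblasts, 4 were above background on at least 1 array, of which Adgre1 (4.93 and 5.76), Pecam1 (3.55 and 5.33) and Dcn (5.06 and 5.82) were so in shPDLIM2 cells only and Col3a1 (10.83 and 10.49) on both arrays. Their part in the differences of the chaperones was not tested.

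In shPDLIM2 LLC cells 43 of the 81 members had lower signals and 38 higher ones, and their median log2 difference was -0.03. Over all genes 49.0% were lower and 50% higher, around a median of 0.01, so the counts for the whole family were near those of the array. Of these members, 63 were above background on at least 1 array and 55 on both. Among the 63, 36 were lower and 27 were higher, their median being -0.12, beside 54.9% lower and 44.2% higher and a median of -0.06 over the 10800 genes of the array above background. None of the 63 was at least 2-fold lower, where 3.27% of such genes were, and 1 was at least 2-fold higher as measured, Dnajc27, where 2.09% were. Its signal in shEmpty cells was at background, so that its fold is a bound, given below. At 1.5-fold, 11 were lower and 7 higher, beside 14.5% and 9.78% of those genes.

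Within the family, the inducible and constitutive lists were both mostly lower and differed in size, while the CCT list was mostly higher. Most HSF1-inducible chaperones had lower signals in shPDLIM2 LLC cells, constitutive HSP and DNAJ genes were closer to equal, and most CCT subunits had higher signals. Low medians were not particular to the inducible list. DNAJ genes of the endoplasmic reticulum membrane and secretory path had -0.335, and BAG genes, which include Bag3 of that list, -0.285. The other role groups with several genes measured ran from -0.265 to 0.21. HSF1 targets outside the rule had a median of 0.12. Of the 10 inducible genes 9 were lower and 1 was higher, around a median of -0.47 (1.39-fold lower) with a range from -0.90 to 0.40. Of the 6 constitutive genes 5 were lower and 1 were higher, their median being -0.175. Of the 7 CCT genes 6 were higher and 1 lower, with a median of 0.21. Beside these counts, 49.0% of all genes were lower and 50% higher, and of those above background 54.9% and 44.2%. The inducible count includes Hspb1, which was not above background, and both of the near-identical copies Hspa1a and Hspa1b. Of the 9 inducible genes above background 8 were lower.
The inducible median was lower than the constitutive one by a log2 difference of -0.295, and lower than the CCT one by -0.68. In 87.1% of the 70 pairs of 1 inducible and 1 CCT gene, the inducible gene had the lower difference, against 70.0% of the 60 pairs of 1 inducible and 1 constitutive gene. In size, 7 of the 10 inducible differences exceeded the spread of 1 probe set (6 lower and 1 higher), 1 of 6 constitutive and 1 of 7 CCT differences, beside 47.7% of all genes above background. The lists are short and the genes of a list are not replicates of the knockdown, so these values describe the 2 arrays only.

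**Figure D1:**
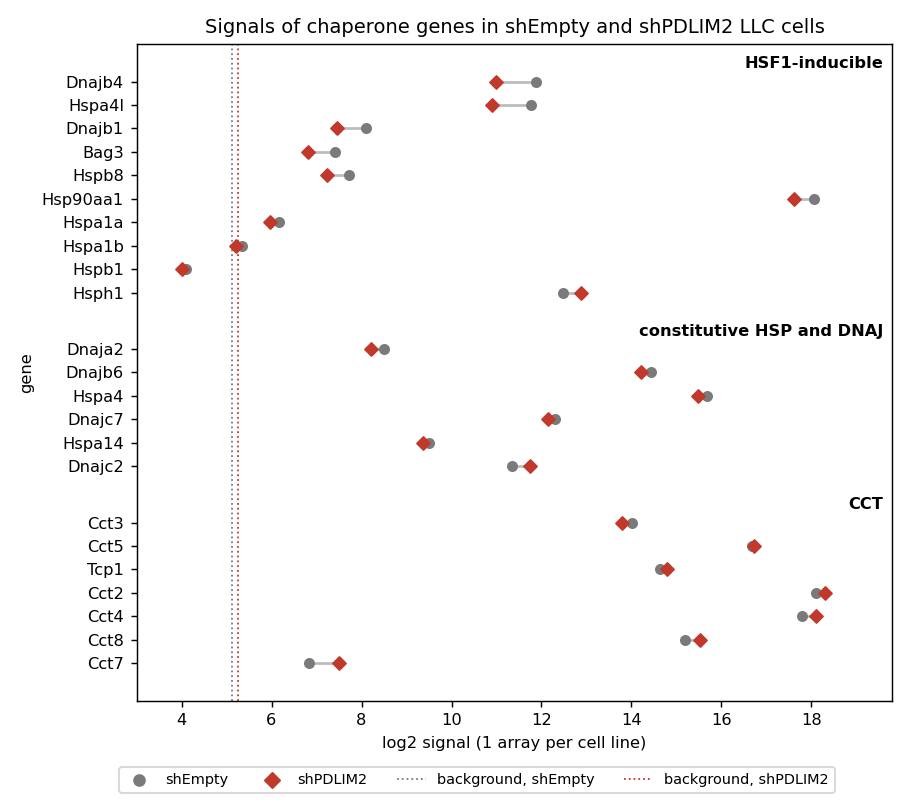
The x axis gives the log2 signal on the 1 array of each cell line and the y axis the gene, with shEmpty as grey circles, shPDLIM2 as red diamonds and the background level of each array as a dotted line; genes are ordered by their difference within each list. In 9 of 10 inducible genes the diamond lies to the left of the circle, and in 6 of 7 CCT genes to the right.

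The lowest differences in the inducible list were those of a DNAJ protein and of an HSP110 protein. Dnajb4, a DNAJ co-chaperone of HSP70, had 11.88 in shEmpty against 10.98 in shPDLIM2 cells on the log2 scale (-0.90, 1.87-fold lower). Hspa4l, an exchange factor of the HSP110 family, had 11.77 and 10.90 (-0.87, 1.83-fold lower). Both lay below the central 95% of the receptor genes (-0.79 to 1.01), as 769 of the 10800 genes above background did in all, Bag4 and Hspa12b among them. Receptor genes are mostly dim, so this range may not hold at brighter signals. Of genes within 1 log2 unit of the mean signals of Dnajb4 and Hspa4l, 3.69% and 4.44% had lower differences.
Dnajb1, the main heat-induced DNAJ protein (known as HSP40), had 8.10 and 7.46 (-0.64, 1.56-fold lower). Bag3, which links HSP70 to autophagy of its clients, had 7.40 and 6.82 (-0.58, 1.49-fold lower). Hspb8, the small heat shock protein that works with Bag3, had 7.73 and 7.23 (-0.50, 1.41-fold lower). The differences of Bag3 and Hspb8 were each larger in size than the spread of 1 probe set, as were 47.7% of those of all genes above background. A joint change of these partners was not tested.
Hsp90aa1, the inducible HSP90, had very high signals on both arrays, 18.06 and 17.62 (-0.44, 1.36-fold lower). Of the 81 genes within 1 log2 unit of it, 18.5% had lower differences, and their median was itself -0.19.

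The classical stress-induced HSP70 genes carried little signal in these cultures. Hspa1a had 6.17 and 5.97 (-0.20) and Hspa1b 5.34 and 5.22 (-0.12), the latter above background in shEmpty cells alone. Since the 2 genes are near-identical copies, probes may not keep them apart. Hspb1, the small heat shock protein known as HSP25 in mouse, was not above background on either array (4.10 and 4.02), so that its difference of -0.08 is one between background signals.
The exception in the list was Hsph1, the main HSP110 protein and an exchange factor of HSP70, with 12.48 and 12.88 (0.40, 1.32-fold higher). It was also the inducible gene with the run of 3 units in its window. Dnajb6, the other member with such a run, was lower (-0.23), and a link between the run and the difference was not tested. Hsph1 and Hspa4l, both of the HSP110 family, thus had differences of opposite sign.

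The constitutive HSP and DNAJ genes had differences of small size. Hspa4, the constitutive HSP110 relative, had signals of 15.67 and 15.48 (-0.19) and Hspa14, an HSP70 of the ribosome, 9.51 and 9.37 (-0.14). Dnajc2, its partner at the ribosome, which recruits HSP70 to nascent chains, had 11.35 and 11.75 (0.40) and was the only one of the 6 that was higher. The 2 partners at the ribosome therefore differed in direction.
Dnaja2 had 8.50 and 8.20 (-0.30), Dnajb6, which suppresses aggregation, 14.44 and 14.21 (-0.23), and Dnajc7, which binds both HSP70 and HSP90, 12.31 and 12.15 (-0.16). All of these but Dnajc2 were within the spread of 1 probe set.

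For the CCT ring, 6 of 7 measured subunits had higher signals in shPDLIM2 LLC cells, from 0.05 to 0.65. Cct7, the eta subunit, had 6.84 and 7.49 (0.65, 1.57-fold higher) and was the only subunit beyond the spread of 1 probe set. Of the 7, its probe set lay nearest to background (5.12 and 5.26), which limits this value. Cct8 had 15.20 and 15.53 (0.33, 1.26-fold higher), Cct4 17.80 and 18.09 (0.29) and Cct2 18.09 and 18.30 (0.21). Cct2 and Cct4 lay among the brightest genes of the array, where most were lower in shPDLIM2 cells. Of the 80 genes with a mean log2 signal from 17 to 19, 76.2% were lower and 21.2% were higher, around a median of -0.195.
Tcp1, the alpha subunit, had 14.64 and 14.79 (0.15) and Cct5 16.68 and 16.73 (0.05). Cct3, the gamma subunit, was the 1 lower subunit, with 14.02 and 13.78 (-0.24). The ring is built from all its subunits, but the signals of different probe sets cannot be set against each other, so no ratio between subunits is given. Cct6b, a form of the zeta subunit known from testis, was above background in shPDLIM2 cells alone (4.93 and 5.56), which makes it at least 1.36-fold higher, and the CCT-like gene Cct8l1 was not above background.

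Other members are given by role, in small groups, whose counts include genes not above background. Over all genes 49.0% were lower, and over those above background 54.9%. Among the heat shock factors, which bind the elements shown above, Hsf2 had 9.45 and 9.42 and Hsf4 6.80 and 6.77. Both differences were -0.03, and their sign turned under quantile normalization (0.06 for each) and once a trend with signal was removed (0.04 for each). Hsf3 and Hsf5 were not above background. Hsf2bp, which was matched by name and encodes an HSF2-binding protein known from meiosis, had 5.25 and 6.04 (0.79).
In the wider HSP70 family, Hspa13 had nearly equal signals of 12.11 and 12.16. Hspa12b, a distant relative known from endothelium, had 6.06 and 5.23 and was above background in shEmpty cells only, at least 1.74-fold lower. Hspa2, the HSP70 of the testis, was above background by a narrow margin in shEmpty cells alone (5.12 and 4.69), and Hspa1l and Hspa12a were not above it. Of the 11 genes of the HSP70 and HSP110 families, 7 were lower and 4 were higher, their median being -0.14. Of the 9 above background, 7 were lower.
Small heat shock proteins other than Hspb8, several of which are known from muscle or testis, gave little signal. Hspb2, Hspb7 and Hspb9 were not above background and Hspb3 was so by a narrow margin in shEmpty cells (5.14 and 4.91), whereas Hspb6 had 6.13 and 6.51 (0.38). Hspb11, a subunit of intraflagellar transport that carries the name, had 7.85 and 8.10.

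For the BAG proteins, several of which release nucleotide and client from HSP70, the median was -0.285, 4 of 6 being lower and 2 higher. Bag4, known as a silencer of death domains, had the largest difference, with 7.15 and 6.29 (-0.86, 1.82-fold lower), next to Bag3. Bag1 had 11.45 and 11.16 (-0.29) and Bag6, which guides tail-anchored proteins and the degradation of mislocalized ones, 10.68 and 10.40 (-0.28). Bag2, an inhibitor of the ubiquitin ligase CHIP, had 8.37 and 8.74 (0.37), and Bag5 10.37 and 10.46 (0.09). Another exchange factor of HSP70, Hspbp1, had 7.69 and 7.99 (0.30), and Hspbap1, named for its binding to a small heat shock protein, had 6.78 and 7.43 (0.65). The BAG genes thus went both ways.

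Of the 6 DNAJA and DNAJB genes of the cytosol and nucleus, 5 were lower and 1 were higher, their median being -0.265. Besides those above, Dnajb2, known from neurons, had 6.22 and 6.00 (-0.22), and Dnaja4 had 5.70 and 6.14 (0.44) as the only one higher. DNAJ genes of the nucleus and ribosome had 4 of 6 lower and a median of -0.245. Among them Dnajc9, a histone chaperone, had 9.67 and 9.01 (-0.66), and Dnajc21, a factor of ribosome assembly, 8.16 and 7.56 (-0.60). Dnajc8, of the spliceosome, had 13.05 and 12.59 (-0.46), Dnajc17 6.27 and 6.65 (0.38), and Dnajc24, of diphthamide synthesis, 6.01 and 5.98. Beside these counts, 54.9% of all genes above background were lower, and groups of 6 genes are small.
DNAJ genes of the endoplasmic reticulum membrane and the secretory path, which the symbol rule kept, had 6 of 8 lower and a median of -0.335. Of the 7 above background, 5 were lower. Dnajc1 had 8.54 and 7.82 (-0.72) and Dnajc18 7.57 and 6.87 (-0.70), and Dnajc22 was above background in shEmpty cells alone (5.20 and 4.48). Dnajb12, which acts in degradation of membrane proteins, had 7.16 and 6.86 (-0.30), while its relative Dnajb14 had 5.86 and 6.18 (0.32). The sign thus differed between these relatives. Dnajc25 had 5.60 and 6.21 (0.61), Dnajc14 8.94 and 8.84, and Dnajc16 was not above background.
The mitochondrial DNAJ genes went both ways, with the widest range among the role groups of members, 4 lower and 3 higher, from -0.69 to 0.95, and their median of -0.05 became 0.14 without Dnajc28, which was not above background. Dnajc11, a protein of the outer membrane and its contact sites with the inner one, had 8.23 and 9.18 (0.95, 1.93-fold higher), and only 1.49% of genes of like signal had higher differences. Dnajc19 and Dnajc15, which act at the import motor, had 11.22 and 11.76 (0.54) and 8.22 and 8.67 (0.45). Dnajc4 had 7.93 and 7.24 (-0.69) and Dnaja3, which acts in the matrix, 8.70 and 8.41 (-0.29), while Dnajc30 had 5.59 and 5.42. Dnajc19 and Dnajc15 of the import motor were both higher, and the matrix co-chaperone Dnaja3 was lower within the spread of 1 probe set.
For vesicle traffic, Dnajc13, of endosomes, had 8.35 and 8.77 (0.42), Dnajc5, which chaperones exocytosis, 7.16 and 6.98 (-0.18), and Dnajc6, of clathrin uncoating, was not above background. None of the 6 DNAJ genes of testis and related tissue (Dnajb3, Dnajb7, Dnajb8, Dnajb13, Dnajc5b and Dnajc5g) was above background. Dnajc27, which carries a GTPase domain, had the largest difference of all members, from 4.14 to 5.95, but since it was above background in shPDLIM2 cells alone it was at least 1.78-fold higher. Dnajc12 was so as well (4.78 and 5.29), at least 1.13-fold higher. In all, 18 members were not above background on either array, with 7 lower and 11 higher.

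**Figure D2:**
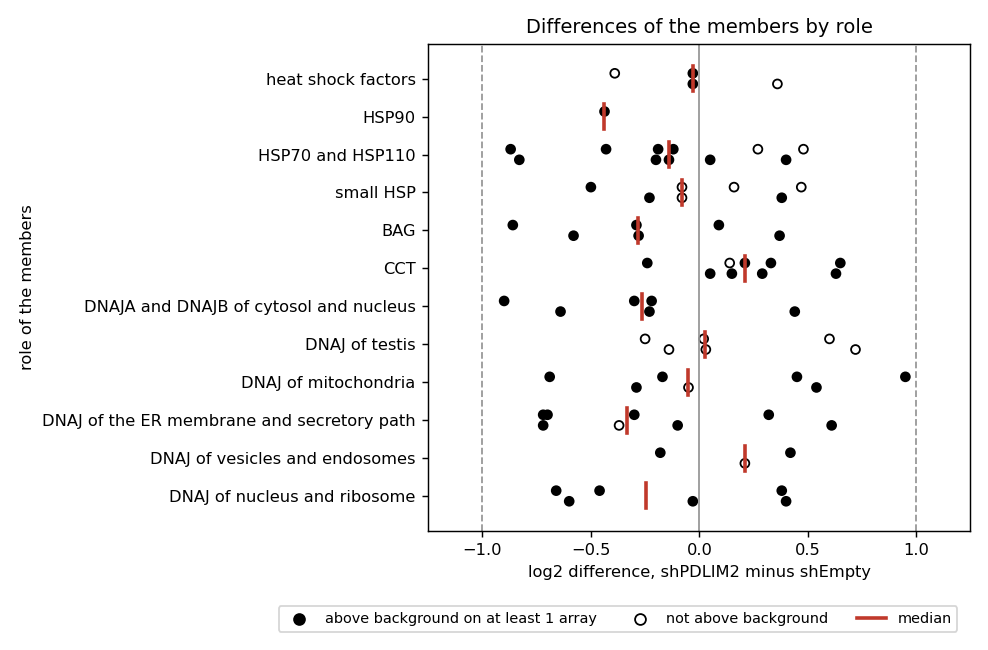
The x axis gives the log2 difference, shPDLIM2 minus shEmpty, for each member and the y axis its role; filled points were above background on at least 1 array, open points were not, red bars are medians and dashed lines mark 2-fold. The 7 members without a role, Dnajc27 among them, are not drawn. The CCT points lie to the right of 0 but for Cct3 at -0.24, those of the cytosolic DNAJA and DNAJB genes to the left but for Dnaja4 at 0.44, and the mitochondrial DNAJ genes spread from -0.69 to 0.95.

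Genes of the same pathway whose symbols fall outside the rule were read from lists of their own. Of 16 measured co-chaperones of HSP90, 10 were lower and 6 were higher around a median of -0.25. Over all genes above background 54.9% were lower and 44.2% higher. Tomm34, which binds both HSP70 and HSP90, had 7.79 and 6.54 (2.38-fold lower), and Cdc37, which brings kinases to HSP90, had 12.18 and 11.20 (1.97-fold lower). Ptges3, the co-chaperone p23, had 11.58 and 10.87 (-0.71), and Nudc 11.63 and 10.93 (-0.70). The peptidyl-prolyl isomerases of this list were higher, with Fkbp5 at 13.55 and 14.16 (0.61), Fkbp4 at 11.48 and 11.95 (0.47) and Ppid at 14.35 and 14.64 (0.29), except Fkbp8 at -0.26. The phosphatase Ppp5c, which shares their HSP90-binding repeat, was at 0.53.
Of 10 genes of prefoldin and phosducin-like proteins, which hand clients to CCT or help it, 5 were lower and 5 were higher, their median being -0.035, which turned to 0.05 under quantile normalization. Pfdn5 was the lowest, with 13.04 and 11.96 (2.11-fold lower), and Uri1, of a prefoldin-like complex, the highest, with 11.92 and 12.83 (1.88-fold higher). Txndc9 was at 0.39 and Vbp1 at -0.37. Of 10 helpers of CCT 5 were higher and of its 7 subunits 6, beside 44.2% of all genes above background. Of these subunits only Cct7 was beyond the spread of 1 probe set.
HSF1 targets outside the rule went both ways. Of 10 measured, 4 were lower and 6 were higher, their median being 0.12, beside 49.0% lower and 50% higher over all genes. Hspd1 and Hspe1, the chaperonin of the mitochondrial matrix and its lid, had 15.73 and 16.05 (0.32) and 12.39 and 12.53 (0.14), and Serpinh1, the collagen chaperone, had 12.98 and 13.13. Ahsa1, the activator of the HSP90 ATPase, had 11.87 and 11.27 (-0.60) and Stip1, which joins HSP70 to HSP90, 15.10 and 14.72 (-0.38), whereas Fkbp4 was higher. Some of these genes are also on the list of co-chaperones. The inducible members above background numbered 9, of which 8 were lower, with a median of -0.50.
The 7 chaperones that the rule left out had a median of 0.16, with 2 lower and 5 higher, beside 44.2% of all genes above background higher. Hspa9, the HSP70 of the mitochondrial matrix, had 15.33 and 15.58 (0.25), Dnajc3 9.07 and 9.54 (0.47) and Dnajb11 7.19 and 6.68 (-0.51). Hspa5 and Hsp90b1, the HSP70 and HSP90 of the endoplasmic reticulum, were at 0.16 and -0.01. Hsp90aa1, the cytosolic relative of Hsp90b1, was at -0.44, and the stress-induced HSP70 genes Hspa1a and Hspa1b were at -0.20 and -0.12. No test of the difference between these compartments is possible with 1 array each.

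The direction of the 3 lists was the same under each scaling that was tried, of which centring moved each difference by only 0.01. Each time 9 of 10 inducible genes were lower and 6 of 7 CCT genes higher. Their medians moved up together under quantile normalization, to -0.319, -0.118 and 0.36 for the inducible, constitutive and CCT lists. Of the 81 members, 77 kept their sign under all scalings, the others being Hsf2, Hsf4, Dnajb3 and Dnajc5b, each at most 0.06 from 0.

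**Figure D3:**
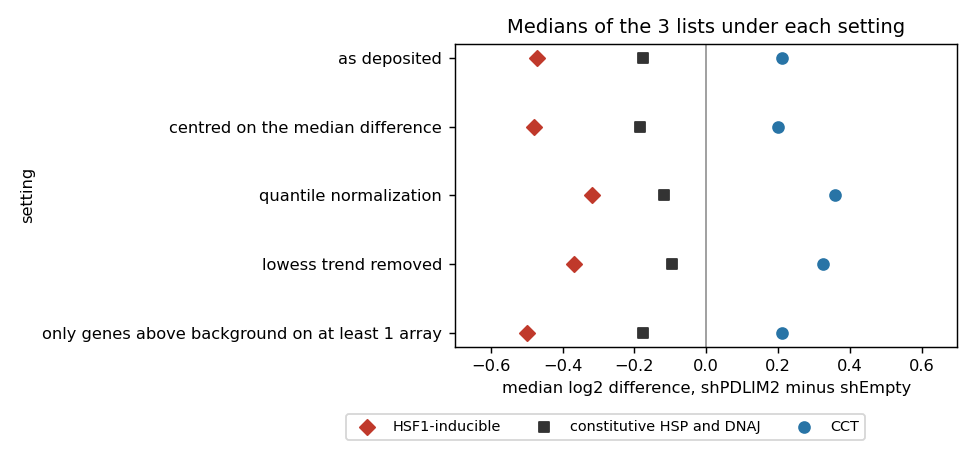
The x axis gives the median log2 difference, shPDLIM2 minus shEmpty, and the y axis the setting, with the inducible list as red diamonds, the constitutive list as black squares and the CCT list as blue circles. The order of the 3 lists is the same in the 5 settings drawn, in which the inducible median runs from -0.50 to -0.319. Centring moves all lists alike and cannot change this order, and the filter on dim genes removed no constitutive or CCT gene. Without Hspa1a and Hspa1b, which is not drawn, the inducible median was -0.54.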

How the data were processed

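Total RNA of shEmpty and shPDLIM2 LLC cells was hybridized to Affymetrix Clariom S mouse arrays. The authors deposited 1 log2 signal for each probe set, with 2 decimals. RMA and the Transcriptome Analysis Console appear in the submitters' processing notes, without versions; the genome build is not stated in the sources used here. RMA usually subtracts background, normalizes arrays and summarizes probes, but whether these 2 arrays were normalized together is not given either. Their medians were 5.22 and 5.28.

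Of 22206 probe sets, 19572 had 1 gene symbol in the platform annotation, 0 several and 2634 none, and the latter were not used. Probe sets of 1 gene were averaged (55 genes, none of them a member). With 1 array per cell line no test was run, and the number of arrays limits the precision. A fold is a lower bound where 1 array alone was above background, set by whichever of the background and the dimmer signal was higher. Members and lists were chosen with earlier results of these data known. Genes named are all members, which include those that the rule for named genes covers, and up to 4 of each further list with the largest differences, with a few more chosen after their values were seen. As alternatives, differences were centred on their median, and further ones were quantile normalization, removal of a lowess trend (fraction 0.3), a filter on dim genes, separate probe sets, 1.5-fold in place of 2-fold, the 99th percentile as background, the inducible list without Hspa1a and Hspa1b, and pairs in place of runs of 3 units. The calculation of list medians was checked on simulated data with known shifts, which is no test of the lists. Calculations ran in Python 3.11.15 with pandas 2.3.3 and numpy 2.4.6, the lowess fit in statsmodels 0.14.6, and plots were drawn in matplotlib 3.10.9.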

Additional observations from a re-analysis of the deposited data

How the results depend on the processing

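No paired analysis was possible because each cell line has 1 array, and no array could be left out. The median of the HSF1-inducible list was nearer to 0 after quantile normalization (-0.319) than as deposited (-0.47). The median of all members was -0.12 over those above background, against -0.03 over all 81. At 1.5-fold in place of 2-fold, 11 of all members were lower and 9 higher, against 0 and 1. Under quantile normalization, and likewise without the lowess trend, 2 members were at least 2-fold higher, as Dnajc11 joined Dnajc27 at 1.04. The inducible, constitutive and CCT medians kept their direction under each setting tried, but not every setting could change them. Separate probe sets could not, as no member had more than 1 probe set. Centring moved each difference by only 0.01, and the filter on dim genes removed no constitutive or CCT gene. The medians of the heat shock factors, the DNAJ genes of testis and the prefoldin list, at -0.03, 0.025 and -0.035 as deposited, changed sign under quantile normalization (0.055, -0.03 and 0.05) and without the lowess trend. The gap between the inducible and CCT medians ran from -0.75 to -0.679. The median of the mitochondrial DNAJ genes was -0.05, and 0.14 without the 1 gene not above background. Moving Hspa8 and Hsp90ab1 between lists could not be run, as neither was analysed here. Signals near background limit Hspa1b, Hspb1 and the 8 members above background on 1 array alone. A difference within 0.35 is within the spread of 1 probe set.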

Other observations

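Among the genes above background with a promoter window, members or not, those with a heat shock element were close to the others. The 55 genes with a run of 3 units had a median log2 difference of -0.13, with 61.8% lower in shPDLIM2 LLC cells. The 1213 genes with a pair of inverted units had a median of -0.10, with 56.7% lower, and the 7611 genes without one had a median of -0.06, with 54.9% lower. No test was run on these counts.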
